A study of Danio rerio with 6 samples.

Results

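The genes described here encode the core of the Sonic hedgehog pathway: the ligands *shha* and *shhb*, the receptor *ptch1*, the ligand-binding protein *hhip*, the transducer *smo* and the transcription factors *gli1*, *gli2a*, *gli2b* and *gli3*. They were picked by name and not by any measured value, though with earlier results of these data known. All 9 were found among the 23025 genes of the deposited table. Hindbrain tissue of embryos aged 48 hours (48 hpf, hours post fertilization) had been dissected for RNA-seq, to ask how gene expression differs in zebrafish that lack *gas6*, a secreted ligand of Tyro3, Axl and Mertk receptor kinases. There were 3 libraries from homozygous *gas6* mutants and 3 from wildtype controls, each made from a pool of dissected tissue. The *gas6* mutants derive from a single CRISPR/Cas9 founder that passed on the frameshift alleles um296, um297, um298 and um299, and the sources do not say which of these the sequenced embryos carried. The embryos came from a line kept as homozygous mutants. Both groups carried the *Tg(olig2:EGFP)* transgene (allele vu12), whose fluorescence guided the dissection. The controls came from the transgenic line, so effects of *gas6* and other differences between the lines cannot be told apart.

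In a cell that receives no hedgehog, Ptch1 keeps the membrane protein Smoothened (encoded by *smo*) inactive and the Gli proteins are cut into repressors or degraded. A hedgehog ligand relieves this block at the primary cilium, and full-length Gli proteins then activate target genes, among them *ptch1*, *hhip* and *gli1* themselves. In the hindbrain the ligand is made by the floor plate at the ventral midline, and the pathway patterns ventral progenitors and sustains proliferation. Zebrafish *shha* is the gene mutated in *sonic you* and *gli2a* that in *you-too*.

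Of the 9 genes, 4 were lower in *gas6* mutants at an adjusted p-value under 0.05 and none was higher. The 4 were *smo*, *gli1*, *gli2a* and *gli2b*, which fell to between 57% and 64.8% of the wildtype level. Neither ligand passed the test, nor did *ptch1*, *hhip* or *gli3*. The same test was run on 20463 genes, of which 33.3% passed, 16.6% as lower and 16.7% as higher in *gas6* mutants, so a call in this comparison is common. The median log2 fold change was -0.21 over the 9 genes and 0.016 over all genes tested. Levels are given as CPM, counts divided by a library size that is scaled by TMM, and they are compared only between libraries and never between genes, as transcript lengths were not used. A log2 fold change is that of *gas6* mutants over wildtype. In such tissue a lower level can mean fewer expressing cells or less RNA per cell, and these cannot be told apart.

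**Figure D1:**
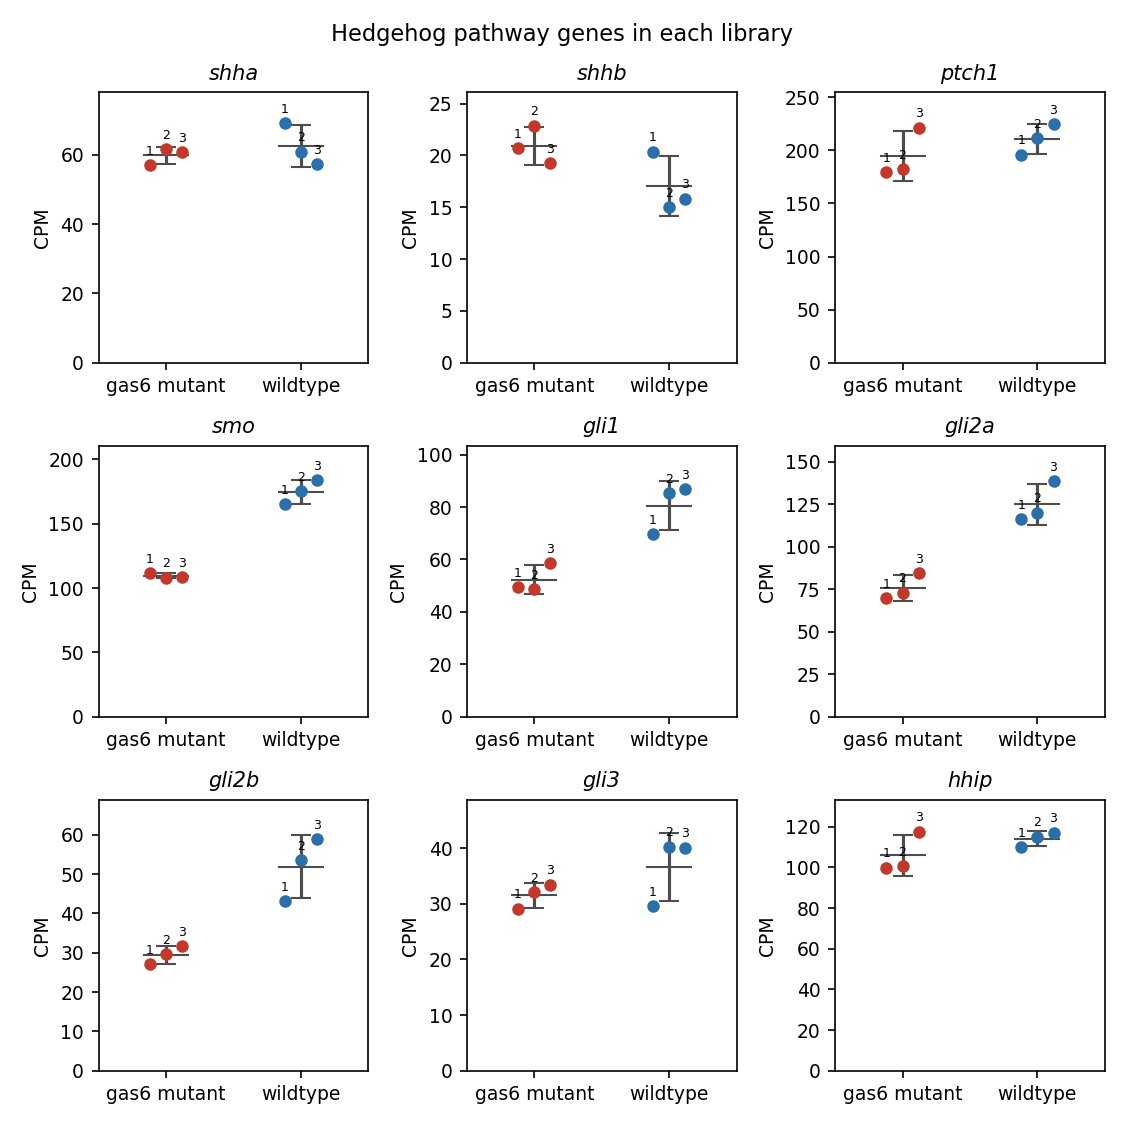
CPM of each hedgehog pathway gene in the 3 *gas6* mutant libraries (left, red) and the 3 wildtype libraries (right, blue), with the library number beside each point and the mean and SD over 3 libraries in grey. For *smo*, *gli1*, *gli2a* and *gli2b* every *gas6* mutant library lies below every wildtype library, while the genotypes overlap for the other 5 genes.

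Total counts per library were between 18376627 and 27025868. Counts of *gas6* itself matched the labels, at 12.8% of the wildtype level in *gas6* mutants. Of 8 hindbrain markers none was at 0 in any library, but 4 were lower in *gas6* mutants. These were *egr2b* (log2 fold change -2.21, with only 20 to 38 counts in mutants), *hoxb1a* (-1.41), *hoxb2a* (-0.78) and *hoxd4a* (-0.67). The other 4, *mafba*, *hoxa2b*, *hoxb3a* and *hoxd3a*, did not pass, at -0.29 to 0.17. Counts of this and every later marker list stand against 16.6% lower and 16.7% higher among all genes tested. The 6 lens markers summed to between 277 and 656 CPM in *gas6* mutants, against between 0.41 and 22.2 CPM in wildtype, and all 6 were called higher. The retina markers summed to between 55.5 and 77.3 CPM in *gas6* mutants, against between 11.9 and 23.7 CPM in wildtype. Skeletal muscle markers summed to between 9998 and 19936 CPM in *gas6* mutants, highest in library 3, against between 11461 and 12653 CPM in wildtype. Notochord markers summed to between 3387 and 4591 CPM in *gas6* mutants, against between 3367 and 3596 CPM in wildtype. Most of that sum came from *col2a1a*, at 3324, 3882 and 4495 CPM in *gas6* mutants, against 3288, 3369 and 3509 CPM in wildtype. *tbxta*, listed under the older name *ntla*, was at only 9.02, 7.72 and 5.97 CPM in *gas6* mutants, against 9.25, 8.36 and 8.90 CPM in wildtype. None of the 4 muscle and 3 notochord markers was called, and of 3 pharyngeal endoderm markers 1 was higher. The part of such neighbouring tissue in the levels of the hedgehog genes was not tested. Wildtype library 1 stood apart from the other wildtype libraries on the second principal component (10% of the variance). Values without it are given where they change a call.

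Beginning with the ligands, *shha* was measured at 57.0, 61.7 and 60.8 CPM in *gas6* mutants, against 69.1, 60.9 and 57.3 CPM in wildtype. The ranges overlapped in part: the lowest of the 6 libraries was *gas6* mutant library 1 and the highest was wildtype library 1. The change was -0.061 on the log2 scale, with an SE of 0.10 (adjusted p = 0.676, edgeR). Its 95% interval, from -0.28 to 0.16, leaves room for a small change in either direction. *shhb*, the *tiggywinkle hedgehog* duplicate of the same ligand gene, was at 20.7, 22.9 and 19.2 CPM in *gas6* mutants, against 20.4, 15 and 15.8 CPM in wildtype. Here wildtype library 1 lay within the mutant range and the other 2 wildtype libraries lay below it. The log2 fold change was 0.30 (SE 0.14, 95% interval -0.00276 to 0.60, adjusted p = 0.116). When wildtype library 1 was left out it was 0.44 with an adjusted p of 0.0136, so whether *shhb* is called higher depends on that library.

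At the membrane, neither *ptch1* nor *hhip* passed the test. *ptch1*, which encodes the receptor that restrains Smoothened and is also induced by the pathway, was at 180, 182 and 222 CPM in *gas6* mutants, against 196, 212 and 225 CPM in wildtype. *gas6* mutant library 3 lay inside the wildtype range and the other mutant libraries lay below it. The log2 fold change was -0.12 (SE 0.11, 95% interval -0.35 to 0.12, adjusted p = 0.445). *hhip*, a pathway target that binds and sequesters the ligand, had 99.7, 101 and 118 CPM in *gas6* mutants, against 110, 115 and 117 CPM in wildtype. The highest of the 6 libraries was a mutant one, and the change of -0.11 on the log2 scale (SE 0.10, 95% interval -0.32 to 0.11, adjusted p = 0.441) was within the spread between libraries.

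*smo* had the smallest adjusted p-value of the 9 genes. Its level was 112, 108 and 108 CPM in *gas6* mutants, against 165, 176 and 184 CPM in wildtype. The mutant libraries lay close together, with a mean of 109 CPM ± 1.97 (SD, n = 3), and the wildtype mean was 175 CPM ± 9.36 (SD, n = 3). The log2 fold change was -0.68 (SE 0.092, adjusted p = 0.000225), which is 62.6% of the wildtype level. All 3 mutant libraries lay below all 3 wildtype libraries, as they did for 24.2% of all genes tested. The opposite arrangement held for 24.8% of them.

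Of the 4 Gli genes, *gli1*, *gli2a* and *gli2b* fell. *gli1*, which encodes an activator and is itself a target of the pathway, was at 49.4, 48.6 and 58.6 CPM in *gas6* mutants, against 69.6, 85.3 and 86.7 CPM in wildtype. The lowest wildtype library, library 1, was still above the highest mutant library. The log2 fold change was -0.63 (SE 0.12, adjusted p = 0.00189). *gli2a*, a homolog of the gene for the main activator of the mouse neural tube, was at 69.6, 72.8 and 84.5 CPM in *gas6* mutants, against 116, 120 and 139 CPM in wildtype, and its log2 fold change was -0.72 (SE 0.11, adjusted p = 5e-04). *gli2b*, its duplicate, was at 27.1, 29.6 and 31.7 CPM in *gas6* mutants, against 43.0, 53.6 and 58.8 CPM in wildtype. It had the largest change of the 9 genes, at 57% of the wildtype level (log2 fold change -0.81, SE 0.13, adjusted p = 0.000543). It was also the only one of the 9 with whole-number counts in all 6 libraries.

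*gli3*, whose product acts largely as a repressor in the mouse neural tube, was at 29.1, 32.1 and 33.4 CPM in *gas6* mutants, against 29.6, 40.2 and 40.1 CPM in wildtype. Wildtype library 1 lay within the mutant range and the other 2 wildtype libraries lay above it. The log2 fold change of -0.21 (SE 0.13, 95% interval -0.50 to 0.068) did not pass (adjusted p = 0.225). Without wildtype library 1 it was -0.35 with an adjusted p of 0.0163. Leaving out that library therefore raised the number of called genes from 4 to 6, with *shhb* higher and *gli3* lower. The calls of *smo*, *gli1*, *gli2a* and *gli2b* were kept in each of the 6 fits that left out 1 library, with adjusted p-values of at most 0.0156.

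**Figure D2:**
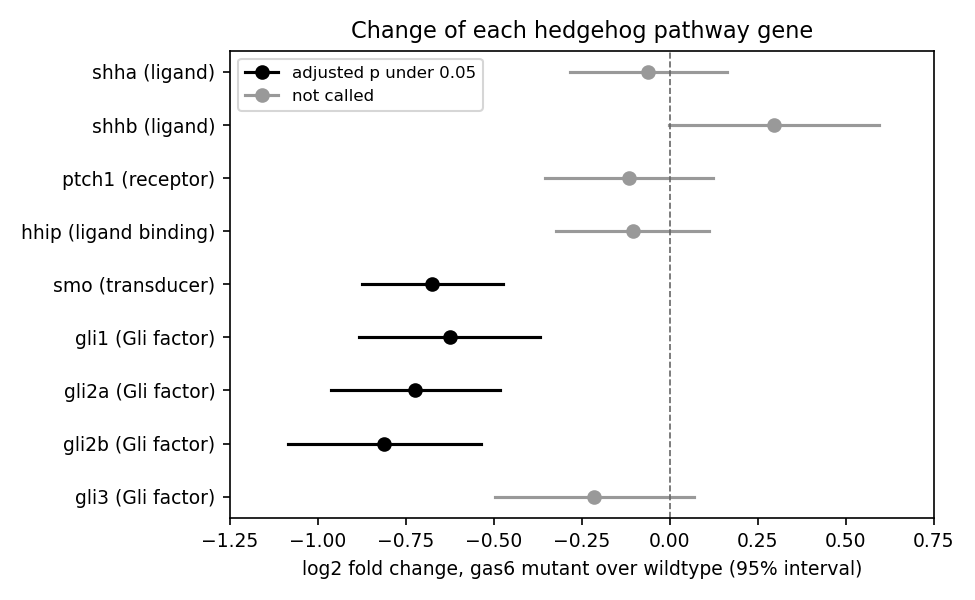
Log2 fold change of each gene in *gas6* mutants over wildtype, ordered from ligands through receptor and transducer to Gli factors, with lines for the 95% intervals of the edgeR fit. Black marks the 4 genes with an adjusted p-value under 0.05, between -0.81 for *gli2b* and -0.63 for *gli1*, and grey the 5 genes that did not pass.

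Whether some genes of the pathway changed more than others was examined with 5 ratios within each library, which do not depend on how libraries are scaled. The log2 ratio of *gli1* to *ptch1*, a pair of targets of the same pathway, was -1.86, -1.91 and -1.92 in *gas6* mutants, against -1.49, -1.31 and -1.37 in wildtype. The genotypes did not overlap, and the mean difference was -0.50. The ratio of *gli1* to *gli3* was also lower in each mutant library (mean log2 ratio 0.72 ± 0.11 in *gas6* mutants and 1.14 ± 0.081 in wildtype, SD, n = 3 each). That of *ptch1* to *smo* was higher in each mutant library, with a mean of 0.82 ± 0.18 in *gas6* mutants and 0.27 ± 0.021 in wildtype (SD, n = 3 each). That of *shha* to *shhb* was lower in each, with means of 1.52 and 1.88. Each of these 4 ratios had an exact two-sided permutation p of 0.1, the smallest that 3 libraries against 3 allow. After adjustment over the 5 ratios it was 0.125, so none could pass 0.05. How often ratios of other gene pairs separate the genotypes was not computed. Of single genes tested, 24.2% had all mutant libraries below all wildtype libraries and 24.8% above. The ratios *gli1* to *ptch1*, *gli1* to *gli3* and *ptch1* to *smo* each set a called gene against an uncalled one. The duplicates *gli2a* and *gli2b* had overlapping ratios (mean log2 ratio 1.36 ± 0.059 in *gas6* mutants and 1.28 ± 0.14 in wildtype, SD, n = 3 each, exact permutation p = 0.5).

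**Figure D3:**
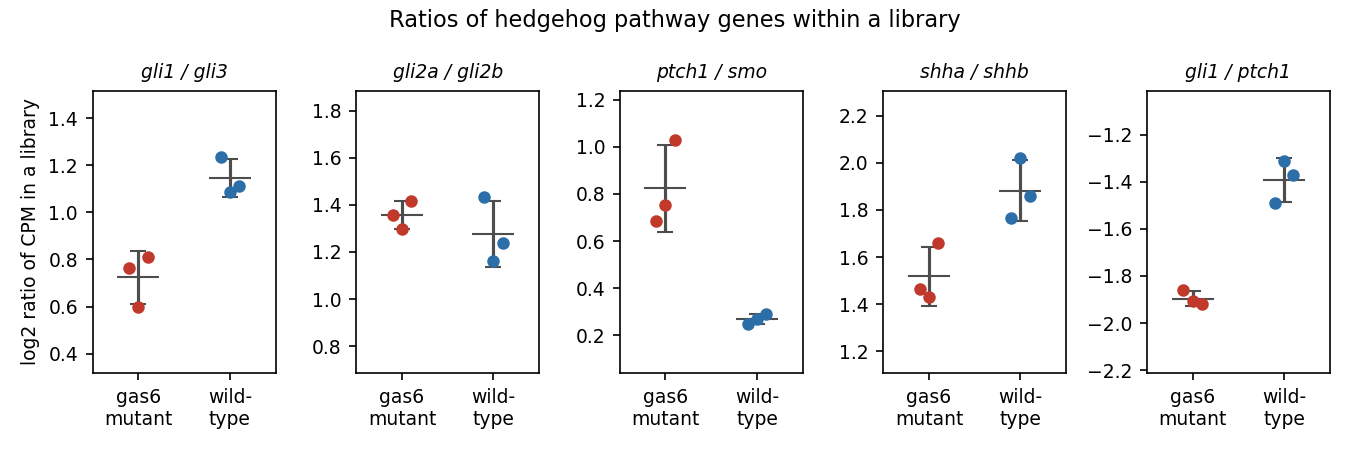
Log2 ratio of the CPM of a pair of genes within each *gas6* mutant library (left, red) and each wildtype library (right, blue), with mean and SD over 3 libraries in grey; each panel spans the same height on the log2 axis. The genotypes do not overlap for *gli1*/*gli3*, *ptch1*/*smo*, *shha*/*shhb* and *gli1*/*ptch1*, and they do for *gli2a*/*gli2b*.

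A further 79 genes were tested, from lists written by hand of the pathway, its targets, its cilium and the dorsal neural tube. Of these, 19 were lower, 7 were higher and 53 did not pass, so that 26 of 79 were called. This is close to the 33.3% of all genes tested, and the counts of the single lists stand against the same share, 16.6% lower and 16.7% higher. Of the co-receptors that help the ligand bind Patched, *cdon*, *gas1a* and *gas1b* fell and *boc* did not pass. *gas1b* was at 33, 34.2 and 31.7 CPM in *gas6* mutants, against 73.3, 59.4 and 70.9 CPM in wildtype (log2 fold change -1.04, SE 0.11, adjusted p = 3.39e-05). The changes of *cdon* and *gas1a* were -0.64 and -0.62 (adjusted p = 0.00084 and 0.000807), and that of *boc* was -0.13 (adjusted p = 0.358). Despite their names, *gas1a* and *gas1b* belong to another gene family than *gas6*.

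On the ligand side, *dhh* and *ihha*, which encode Desert and Indian hedgehog, were higher in *gas6* mutants, but at very low levels. *dhh* had 23, 36 and 32 counts in *gas6* mutants, against 9, 8 and 10 in wildtype (log2 fold change 1.57, SE 0.31, adjusted p = 0.00238). *ihha* had 52, 74 and 72 counts in *gas6* mutants, against 20, 36 and 24 in wildtype (1.15, SE 0.24, adjusted p = 0.00357). *ihhb* did not pass (0.22, adjusted p = 0.567). The list for release and processing of the ligand held 8 genes, *hhatla* and *hhatlb* among them, whose own part in it was not tested. Of the 8, *scube2*, whose secreted product helps to free lipid-bound hedgehog from cells, fell by 0.52 on the log2 scale (adjusted p = 0.00313). *disp2*, related to the hedgehog exporter gene *disp1*, rose to 32.4 CPM ± 3.64 in *gas6* mutants, against 15.7 CPM ± 2.49 in wildtype (SD, n = 3 each, adjusted p = 0.000195). *disp1* itself did not pass (log2 fold change -0.16, adjusted p = 0.397). *hhatlb*, at -0.31, lay at the threshold (adjusted p = 0.0461) and lost it in each of the 6 fits that left out 1 library.

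Of 19 genes that act between Smoothened and the Gli proteins inside the cell, 1 was called, as lower, where 16.6% of all genes tested were lower and 33.3% were called. The median log2 fold change of the 19 was -0.12. That gene was *kif7*, a ciliary kinesin that regulates Gli proteins, with 29.0 CPM ± 3.37 in *gas6* mutants and 40.7 CPM ± 1.58 in wildtype (SD, n = 3 each, log2 fold change -0.49, SE 0.11, adjusted p = 0.00583). *sufu*, which encodes the main inhibitor that holds Gli proteins in the cytoplasm, was at 37.9, 41.3 and 42.7 CPM in *gas6* mutants, against 47.6, 42.0 and 43.1 CPM in wildtype (-0.12, 95% interval -0.34 to 0.10, adjusted p = 0.384). Of 19 genes of intraflagellar transport and the cilium, 1 was lower (*arl3*, -0.54, adjusted p = 0.00231) and 2 were higher (*wdr19*, 0.54, adjusted p = 0.00935, and *ift80*, 0.47, adjusted p = 0.0144). Their median was 0.092. The calls of *wdr19* and *ift80* were lost without *gas6* mutant library 2 (adjusted p = 0.0638 and 0.0841), and that of *ift80* also without wildtype library 2 or 3 (0.0609 and 0.0656).

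**Figure D4:**
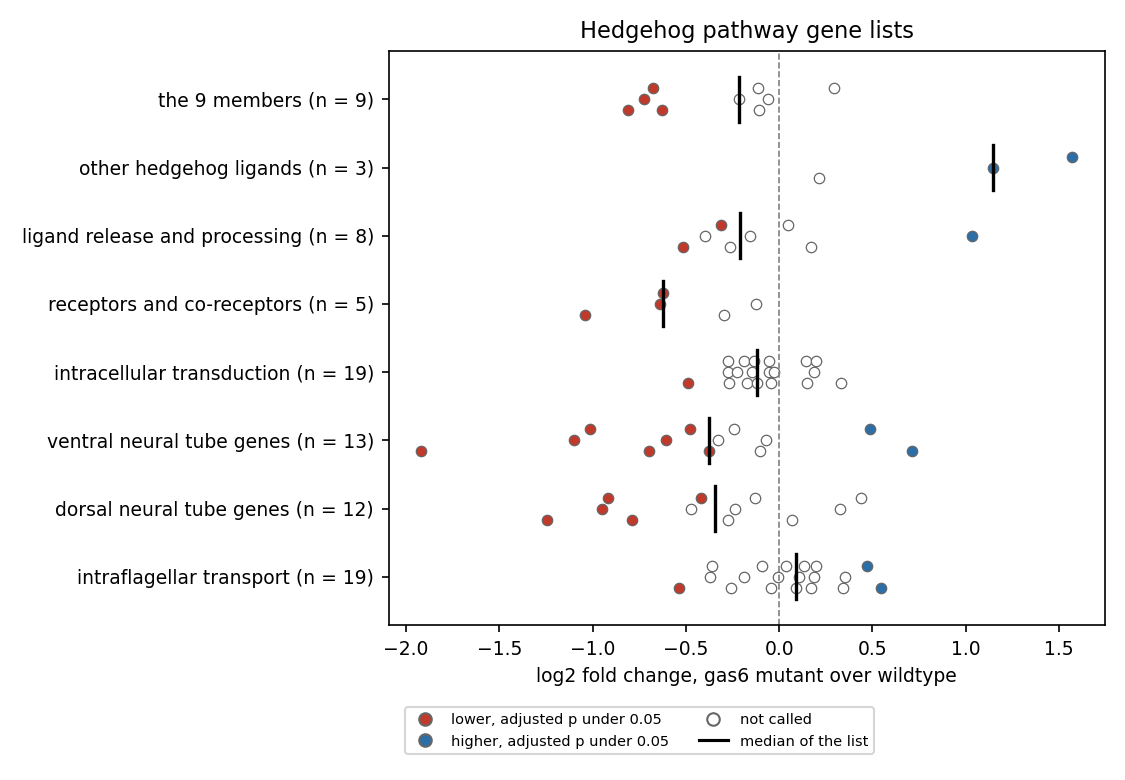
Log2 fold change in *gas6* mutants over wildtype of every tested gene in the hedgehog lists, 1 point per gene, with red for lower and blue for higher genes at an adjusted p-value under 0.05, white for genes that did not pass and a bar for the median of each list. The medians run from -0.62 for the receptors and co-receptors to 1.15 for the other hedgehog ligands.

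Genes that hedgehog induces in the ventral neural tube were then read out. Of 13 tested, 7 were lower and 2 higher, with a median log2 fold change of -0.38. Homeobox genes of the ventral progenitor domains fell to different extents. The largest fall was that of *nkx2.9*, at 1.47, 0.89 and 1.52 CPM in *gas6* mutants, against 5.65, 5.17 and 3.78 CPM in wildtype (-1.92, SE 0.25, adjusted p = 0.000167). Its counts, from 25 to 42 in *gas6* mutants and from 81 to 124 in wildtype, were small. The log2 fold change of *nkx2.2b* was -1.10 and that of *nkx6.1* was -0.70 (adjusted p = 0.000711 and 0.000385). *nkx6.2* fell by 0.48 (adjusted p = 0.00473), and *nkx2.2a*, at -0.38 with an adjusted p of 0.0449, lost its call in each of the 6 fits that left out 1 library.

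Floor plate genes, whose cells are the source of the ligand, were among those that fell. *foxa*, a forkhead gene, was at 6.49, 7.40 and 7.46 CPM in *gas6* mutants, against 16.4, 13.3 and 13.5 CPM in wildtype (-1.01, SE 0.14, adjusted p = 0.000237). *ntn1a*, which encodes the axon guidance protein netrin, fell by 0.61 (adjusted p = 0.000765). *foxa2*, a regulator of floor plate identity, had a change of -0.24 and did not pass (adjusted p = 0.183). Of 7 floor plate markers in all, *foxa*, *ntn1a* and *foxa2* included, 3 were lower and 4 did not pass, and their summed level was between 307 and 324 CPM in *gas6* mutants, against between 351 and 383 CPM in wildtype.

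In contrast, *olig2*, which marks the progenitors of motor neurons and oligodendrocytes, rose by 0.49 on the log2 scale, with 67.3, 78.8 and 65.0 CPM in *gas6* mutants, against 47.4, 50.8 and 52.4 CPM in wildtype (SE 0.11, adjusted p = 0.00436). The endogenous gene and any transcript of the *olig2* reporter construct counted with it cannot be told apart here. *sim1a*, expressed in ventral neurons and in the hypothalamus, was also higher (0.71, adjusted p = 0.0189), but not without wildtype library 3 or *gas6* mutant library 3 (adjusted p = 0.0559 and 0.0801). It is 1 of 8 markers listed for the ventral forebrain, of which 5 were called higher and none was lower. The others included *nkx2.1* and *nkx2.4b*, listed under the older names *nkx2_1b* and *nkx2_1a*, with log2 fold changes of 1.62 and 2.64, and the homeobox gene *rx3* (2.59). The largest change was that of *zgc:171531*, an older name of *nkx2.4a*, with 89, 194 and 115 counts in *gas6* mutants, against 0, 9 and 1 in wildtype. Summed over the 8 markers the level was between 249 and 309 CPM in *gas6* mutants, against between 232 and 263 CPM in wildtype. Most of that sum came from *otpa*, which was not called (log2 fold change 0.14, adjusted p = 0.359) and had 277, 241 and 213 CPM in *gas6* mutants, against 237, 219 and 205 CPM in wildtype. *foxg1a* and *emx3* did not pass either (log2 fold changes -0.27 and 0.21, adjusted p = 0.193 and 0.501). The ventral forebrain also makes and receives hedgehog, and its part in the levels of the hedgehog genes and of *olig2* was not tested.

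Genes of the dorsal neural tube, which hedgehog keeps out of ventral cells, were tested beside these. Of 12, 5 were lower, none was higher and 7 did not pass (median -0.35, values from -1.24 to 0.44). *pax3a*, a paired-box gene of dorsal progenitors, was at 19.3, 18.7 and 19.2 CPM in *gas6* mutants, against 44.8, 44.5 and 46.0 CPM in wildtype (-1.24, SE 0.098, adjusted p = 3.8e-06). *pax7b* fell by 0.95, and the muscle-segment homeobox genes *msxc* and *msxb* had log2 fold changes of -0.92 and -0.79 (adjusted p of at most 0.00152 in these 3 genes). Of the 7 that did not pass, *pax3b*, *pax7a* and *msxd* had positive values, 0.44, 0.32 and 0.069 (adjusted p = 0.114, 0.106 and 0.745). The uncalled *msxe*, *gdf6a*, *gdf7* and *bmp4* lay between -0.47 and -0.13. The *pax3* and *pax7* duplicates thus did not share a direction.

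Beside the 16.6% of all genes tested that were lower and 16.7% higher, 6 of 8 markers of neural progenitors were lower and *fabp7a* was higher. The median log2 fold change of the 8 was -0.70. The lower ones included the progenitor gene *sox19a*, at 146, 164 and 139 CPM in *gas6* mutants, against 375, 303 and 298 CPM in wildtype, and *gfap* of radial glia (log2 fold changes -1.12 and -0.99). The proliferation genes *pcna* and *mki67* had log2 fold changes of -0.62 and -0.78. *sox2* did not pass (0.032, adjusted p = 0.86). The summed level of the 8 was between 1776 and 2007 CPM in *gas6* mutants, against between 2628 and 3047 CPM in wildtype, and none was at 0 in any library. Of 4 neuron markers, *elavl4* was higher (log2 fold change 0.87), and *elavl3*, *snap25a* and *stmn2a* did not pass. The part of progenitor content in the lower levels of *smo*, *gli1*, *gli2a* and *gli2b* was not tested.

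To see which genes vary most like the pathway, *shha*, *ptch1* and *gli1* were compared across the 6 libraries with 13414 other genes that averaged at least 5 CPM. For *ptch1* the third closest was *hhip* (Pearson r = 0.980), another target of the pathway, after *si:ch73-281f12_4* (0.990) and *thbs2b* (0.988). The target *gli1* had a lower correlation, 0.747 with *ptch1* and 0.79 with *hhip*. For *gli1* the closest were *sipa1l1* (0.998), *pi4kb* (0.997) and *fzd4* (0.994), and all 3 were also called lower in *gas6* mutants. For *shha* they were *exoc7* (0.998), *uqcrc2a* (0.993) and *atp5d* (0.991), none of which was called. These values describe 6 libraries, which share the genotype difference and their depth. The closest genes are the highest of 13414 values, and how high such maxima run for other genes was not computed.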

How the data were processed

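Dissected 48 hpf hindbrains of *gas6* mutant and wildtype embryos had been sequenced as 3 stranded mRNA libraries per genotype. The authors deposited estimated counts per gene and library, not normalized, with a lowest total of 11 per gene; the submitters' processing notes name RSEM 1.2.28, FastQC, DESeq2 and the builds GRCz10 and danRer7. Columns with the authors' fold change and adjusted p-value were not used.

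Estimated counts were rounded and filtered with filterByExpr (minimum count 10, minimum total 15), leaving 20463 of 23025 genes and all 9 hedgehog genes. edgeR 4.0.16 in R 4.3.3 was used with TMM scaling, glmQLFit and glmQLFTest, genotype being the only factor, and Benjamini-Hochberg adjustment took in every tested gene. SEs follow from the F statistic. Depths were 18376627 to 27025868 counts, and the median SE was 0.154. Libraries within a genotype differed beyond sampling noise (chi-square 6.72 to 24.7 times its degrees of freedom). As nothing says whether they came from separate clutches, p-values measure only the spread between libraries.

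Genes and lists were chosen with earlier results of these data known. Named were the 9 genes, *gas6*, 12 pathway genes fixed by name (1 of them is not reported here), up to 4 called genes per list with the largest change, and the 3 genes most correlated with *shha*, *ptch1* and *gli1* in log2(CPM + 1). *ihhb*, *disp1*, the uncalled dorsal genes and the markers named were chosen after their values were seen. Of 94 genes in the wider lists, dorsal genes included, 80 were found by current or older name (RefSeq, GRCz12tu). Alternatives were RLE, upper quartile and total count scaling, no filter, DESeq2 1.42.0, limma 3.58.1 with voom, the replicate number as a factor, and each library left out.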

Additional observations from a re-analysis of the deposited data

How the results depend on the processing

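*smo*, *gli1*, *gli2a* and *gli2b* stayed lower and past the threshold in all 13 alternative fits, with log2 fold changes from -0.93 for *gli2b* to -0.49 for *gli1*. Scaling by total count alone raised the median of all genes tested to 0.16, against 0.016 with TMM, and shifted the split by direction: 2013 genes were called lower and 4829 higher, against 3388 and 3425 with TMM, 12 genes of the wider lists were higher against 7, and *shhb* passed at 0.45 (adjusted p = 0.0243). Under it the small changes of *shha*, *ptch1*, *hhip*, *boc* and *sufu* turned positive, to 0.088, 0.025, 0.037, 0.021 and 0.026, all without passing. When each library was left out in turn, from 4661 to 6919 genes were called. Log2 fold changes then ran from -0.13 to 0.012 for *shha*, from 0.20 to 0.44 for *shhb* and from -0.35 to -0.15 for *gli3*. They ran from -0.22 to -0.060 for *ptch1* and from -0.19 to -0.063 for *hhip*. Both were lowest without *gas6* mutant library 3, and neither passed in any of these fits. The positive value for *shha* came without wildtype library 1. Same-numbered libraries did not deviate together (correlations -0.00384, -0.109 and 0.0112). These values give no sign that the numbers pair the libraries, but they cannot exclude it. With the replicate block 6359 genes were called, against 6813, and the same 4 members. The mutant minus wildtype difference in the log2 ratio of *gli2a* to *gli2b* kept its sign whichever library was left out. For the other ratios the genotypes did not overlap, so leaving out 1 library could not change the sign. With 3 libraries per genotype, 95% intervals of the 5 uncalled members were too wide to exclude small changes.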
